A study of Mus musculus with 39 samples.

Results

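Cell cycle and DNA replication genes were described as a set of 44 members of the 39017 genes counted, chosen by symbol: 19 that act in S phase and 25 that act in mitosis. All 44 symbols were found in the table and all 44 passed the filter on low counts in every comparison below. The counts came from 39 RNA libraries of tumour cells sorted from mouse pancreatic tumours, whose titles carry the tag yfp. Cells of 20 clones had been grown under the skin of C57BL/6 mice and were sorted 3 weeks later, with no treatment in any group. The labels class 9 clones (18 libraries) as T cell low, 6 clones (14 libraries) as T cell high and 2 clones (4 libraries) as intermediate, and 3 libraries, of 3 clones, carry no class. A class thus belongs to clones, not to single tumours, and clones whose titles share the number before the letter c are read as clones of one parent line. Neither the genotype and age of the host mice nor the alleles of the tumour lines are given in the sources used here. Whether 2 libraries of one clone stand for 2 animals is not stated, so counts of a clone were summed. The p-values measure the spread between these sums, which may be technical, except where the spread between libraries is named.

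A dividing cell copies its DNA in S phase and separates the copies in mitosis. E2F transcription factors switch on the genes that license replication origins, load the MCM helicase and make deoxynucleotides. Genes of mitosis are switched on later, in large part by FOXM1, B-MYB and the MuvB complex, which binds promoters at short elements named CHR, often next to CCAAT boxes bound by NF-Y. Pancreatic carcinoma cells with lesions in the RAS and cell cycle checkpoint genes are known for dividing in culture and in grafts. In bulk libraries a lower level of these transcripts can come from fewer dividing cells or from less RNA per cell, and these cannot be told apart.

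The promoters show the difference between the groups of genes in their letters, which is why they are given first. RefSeq windows on GRCm38.p6, from 250 bases before to 50 after the start, were found for 36 members, 16 of S phase and 20 of mitosis. No window was matched for Aurkb, Ccna2, Ccne2, Foxm1, Gins2, Kif20a, Mcm4 and Tpx2. On both strands 4 words were searched for E2F, namely TTCCCGC as well as TTCGCGC, and TTGCCGC as well as TTGGCGC. The CHR words were TTTGAA besides TTCGAA, and the word for NF-Y was CCAAT. E2F words can overlap each other when they lie on opposite strands. An E2F word was present in 62.5% of S phase windows (10 of 16), in 4 of 20 mitosis windows and in 9.69% of all 27025 windows of the table. A CHR word was present in 12.5% of S phase windows (2 of 16), in 80.0% of mitosis windows (16 of 20) and in 19.4% of all windows. Within 50 bases of the start, a CHR word lay in 75.0% of mitosis windows, in 0 of 16 S phase windows and in 5.29% of all. At least 2 CCAAT words were found in 60.0% of mitosis windows, 31.2% of S phase windows and 12.2% of all. These matches describe letters and are not binding sites.

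The 250 bases before the start are given for 3 S phase members that hold E2F words and 3 mitosis members that hold CHR words. Capitals mark the E2F, CHR and CCAAT words on either strand, and each line reads 5′ to 3′ on the strand of the gene. Mcm5 (chr8:75109259-75109508, plus strand) and Mcm6 (chr1:128359706-128359955, minus strand) encode subunits of the replicative helicase, and Rrm1 (chr7:102441445-102441694, plus strand) encodes the large subunit of ribonucleotide reductase. Bub1b (chr2:118597961-118598210, plus strand) encodes the spindle checkpoint protein BUBR1, Ccnb2 (chr9:70421555-70421804, minus strand) encodes cyclin B2, and Kif11 (chr19:37376132-37376381, plus strand) encodes the kinesin that pushes the spindle poles apart.
Mcm5: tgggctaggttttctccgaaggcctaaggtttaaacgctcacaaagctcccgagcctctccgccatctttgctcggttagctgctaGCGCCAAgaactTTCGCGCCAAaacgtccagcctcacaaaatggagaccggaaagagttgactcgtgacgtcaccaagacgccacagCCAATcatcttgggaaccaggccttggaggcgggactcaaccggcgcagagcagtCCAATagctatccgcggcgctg
Mcm6: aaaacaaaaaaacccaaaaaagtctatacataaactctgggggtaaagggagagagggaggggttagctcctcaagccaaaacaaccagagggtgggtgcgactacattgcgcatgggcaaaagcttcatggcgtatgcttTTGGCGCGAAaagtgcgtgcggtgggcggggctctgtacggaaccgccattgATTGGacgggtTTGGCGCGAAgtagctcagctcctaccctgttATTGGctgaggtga
Rrm1: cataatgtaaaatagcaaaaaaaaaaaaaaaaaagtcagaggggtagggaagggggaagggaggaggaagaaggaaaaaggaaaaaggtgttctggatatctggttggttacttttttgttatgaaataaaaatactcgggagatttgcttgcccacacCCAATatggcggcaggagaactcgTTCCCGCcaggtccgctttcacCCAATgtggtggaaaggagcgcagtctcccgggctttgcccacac
Bub1b: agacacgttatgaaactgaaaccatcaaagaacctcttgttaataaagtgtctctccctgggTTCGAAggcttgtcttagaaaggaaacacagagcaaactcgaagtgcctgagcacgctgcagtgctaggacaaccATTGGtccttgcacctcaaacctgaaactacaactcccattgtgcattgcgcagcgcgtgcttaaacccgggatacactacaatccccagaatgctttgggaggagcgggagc
Ccnb2: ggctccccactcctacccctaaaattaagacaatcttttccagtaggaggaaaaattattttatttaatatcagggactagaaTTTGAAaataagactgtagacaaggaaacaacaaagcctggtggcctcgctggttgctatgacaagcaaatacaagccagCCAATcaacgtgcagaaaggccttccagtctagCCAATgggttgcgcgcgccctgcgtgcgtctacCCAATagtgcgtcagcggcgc
Kif11: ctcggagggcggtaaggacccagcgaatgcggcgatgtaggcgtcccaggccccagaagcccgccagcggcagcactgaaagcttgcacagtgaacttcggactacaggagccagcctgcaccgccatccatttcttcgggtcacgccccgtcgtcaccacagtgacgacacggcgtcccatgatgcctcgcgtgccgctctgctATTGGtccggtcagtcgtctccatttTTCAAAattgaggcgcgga
Mcm5 and Mcm6 hold overlapping E2F words, read on the plus and minus strands of the same stretch. Rrm1 holds 1 E2F word between CCAAT words. Kif11 holds a CHR word 14 to 19 bases before the start and a CCAAT word upstream of it. In Bub1b and Ccnb2 the CHR word shown lies further upstream, and a further CHR word after the start is not shown.

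The libraries differed in a way that touches every value below. In 19 libraries the summed level of 4 heart muscle genes (Myh6, Myh7, Myl2, Mb) was at least 10 CPM (counts per library, scaled to the same total in each), and in the other 20, called heart-free here, it was below 10 CPM. Heart transcripts nearly coincide with the tumour number in the library titles, so the 2 cannot be told apart. Heart-free libraries of all 6 high clones and of 8 of the 9 low clones were available. Totals ran from 7638130 to 103794674 counts per library. In heart-free clones the carcinoma markers were present, with the keratin gene Krt19 at 701 to 2924 CPM and Epcam at 12.5 to 1319 CPM. The leukocyte gene Ptprc stood at 1.98 to 66.0 CPM, the T cell gene Cd3e at 0 to 0.718 CPM with 5 of 17 clones at 0, and Myh6 was at 0 in 15 of 17 clones.

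Levels of the members were first compared between genes per length, as mean CPM per kilobase of annotated exon over the heart-free clones. The annotated length, such as 11012 bases for Rrm1, can exceed that of the transcript in use, so the order depends on the annotation. Pcna, the sliding clamp of DNA polymerase (ENSMUSG00000027342, chromosome 2, 132249162 to 132253314, minus strand on GRCm38), was the most abundant at 62.2 CPM per kilobase. It was followed by Mcm6 at 42.0 and by Rrm2, the small subunit of ribonucleotide reductase, at 40.8. The mitotic genes Cdc20, which activates the anaphase-promoting complex, and Ccnb2 followed at 34.7 and 31.9. The cyclin E genes Ccne2 and Ccne1, the repair gene Brca1 and the checkpoint kinase gene Chek1 were the lowest, at 2.73, 2.79, 2.92 and 2.98. All 4 of these act in S phase, so both ends of the range were held by S phase genes.

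Across clones the mitosis genes varied somewhat more than the S phase genes. Over 16 classed heart-free clones, the median SD of log2 CPM was 0.45 for S phase members, 0.54 for mitosis members and 0.45 for all 15635 genes tested. Of these clones only yfp_2699c4 (2 libraries) and yfp_2838c3 (3 libraries) had more than 1 heart-free library. The spread between clones can thus not be told from that between libraries. Rrm2 varied most among the members, with an SD of 0.88 and levels from 24.1 CPM in the intermediate clone yfp_7160c5 to 258 CPM in the low clone yfp_2699c4. Kif20a, a kinesin of cell division, and Ccnb1, the cyclin partner of CDK1, followed with SDs of 0.71 and 0.70. Cdk1, the kinase that drives entry into mitosis, Plk1, a kinase of the spindle poles and centromeres, and Tyms, which makes thymidylate for DNA, varied least, with SDs of 0.28, 0.28 and 0.31. Cyclin B1 and its kinase CDK1 thus stood at opposite ends of the range. The clone yfp_7160c5 held the lowest level of 25 of the 44 members and yfp_2699c4 the highest of 13. In its 1 heart-free library yfp_7160c5 also held the highest summed macrophage and pan-leukocyte genes of these clones, at 3289 and 541 CPM. Its fibroblast and endothelial sums, 549 and 10.6 CPM, were not the highest. Whether these go with its low levels was not tested.

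For nearly every member the estimated level was lower in T cell high than in T cell low clones, but none of these differences passed the edgeR test on clone sums. Over all libraries, the log2 difference, high minus low, was below 0 for 44 of 44 members with the TMM scaling (43 of 44 when scaled by library totals only), against 51.7% of all 18551 genes. The median was -0.40 for the 19 S phase members, -0.37 for the 25 mitosis members and -0.01 for all genes. With edgeR's quasi-likelihood test and Benjamini-Hochberg adjustment over all genes, 0 of 44 members were called at an adjusted p under 0.05, as were 0% of all genes, and the smallest adjusted p of a member was 0.307. At an unadjusted p under 0.05, 21 members were lower (11 of S phase and 10 of mitosis), against 6.77% of all genes. With DESeq2 1 member of 44 was called, Tyms, beside 123 of 18508 genes (0.665%), and with limma-voom 0. Many of these genes share one programme, so their directions are not independent of each other.

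In heart-free libraries alone, 39 of 44 members were below 0 (41 of 44 with library totals only), against 50.4% of all 15635 genes. All 19 S phase members were below 0, as were 20 of the 25 mitosis members, the others being Kif23, Plk1, Cdk1, Ube2c and Cdca8. The medians were -0.29 and -0.32, against 0.00 for all genes, and 36 of the 44 differences were nearer to 0 than over all libraries. Again 0 members were called with edgeR, against 0% of all genes, and the smallest adjusted p was 0.216, for Ect2. DESeq2 called 1 member of 44, Ect2, beside 299 of 15091 genes (1.98%), a like share, and limma-voom called 0. At an unadjusted p under 0.05, 7 members were lower, against 5.78% of all genes: Tyms, Ccne1 and Brca1 of S phase, and Ccna2, Bub1, Bub1b and Ect2 of mitosis. With 1 clone left out the number ranged from 4 to 23. It was 23 without the high clone yfp_6556c4, 13 without yfp_6419c1, and 4 without any 1 of yfp_2699c4, yfp_6555c3, yfp_6556c3, yfp_6620c1 and yfp_7160c2. Over all libraries it was 34 without yfp_6556c4. The heart-free comparison shares its libraries with the one over all libraries and is no second test. Only yfp_2699c4 and yfp_2838c3 have more than 1 library in it, so its spread between clones includes that between libraries.

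**Figure D1:**
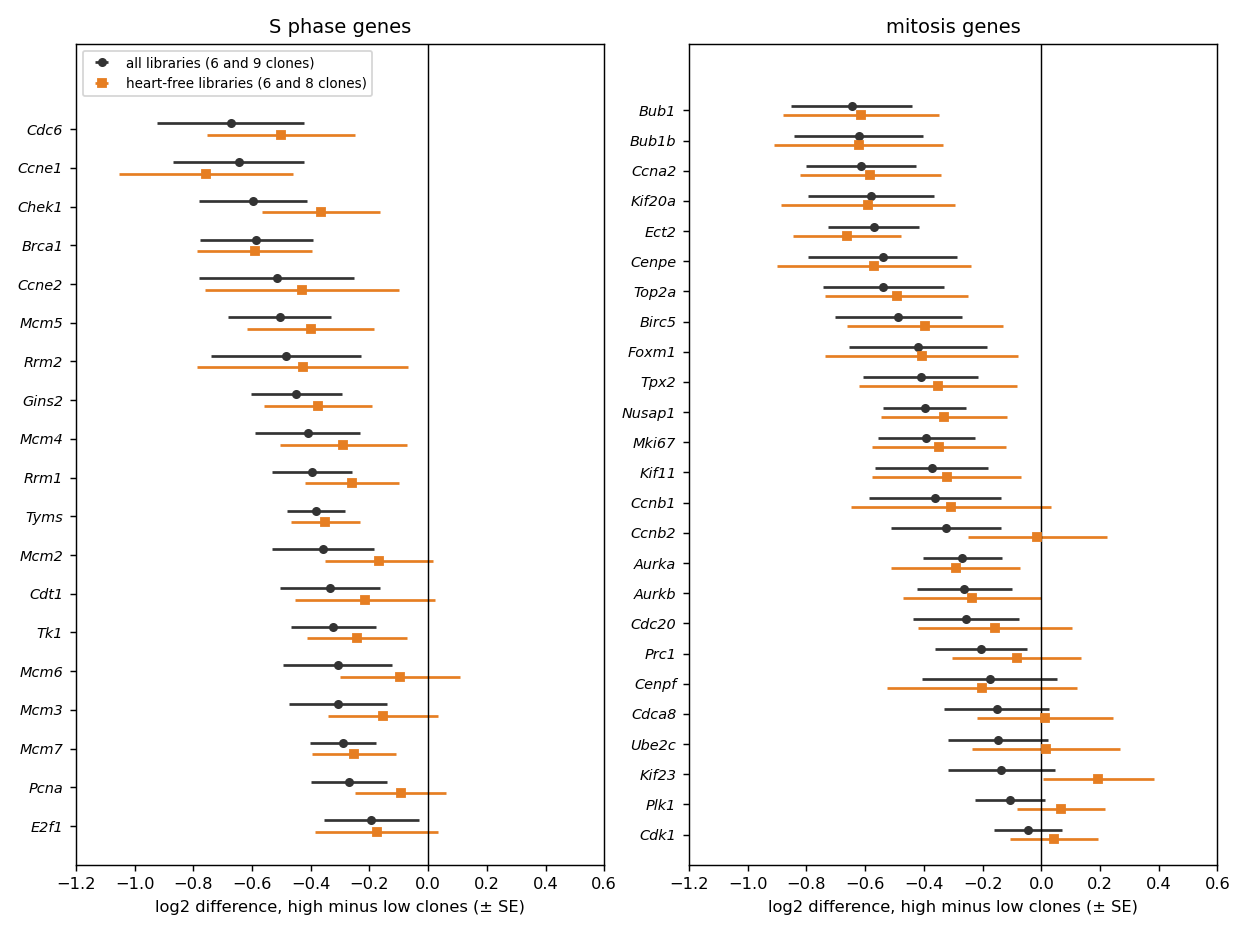
Log2 difference in level between T cell high and T cell low clones for each of the 44 members (points, with bars of 1 standard error), over all libraries (6 and 9 clones) and in heart-free libraries (6 and 8 clones). All 44 points over all libraries lie below 0, and 39 of 44 do in heart-free libraries.

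Among genes of replication, Pcna, Mcm2 and Mcm6 had estimated differences no larger than their errors in heart-free libraries, as did Mcm3 (-0.15 ± 0.19). Those of the other helicase genes Mcm4 (-0.29 ± 0.22), Mcm5 (-0.40 ± 0.22) and Mcm7 (-0.25 ± 0.14) exceeded their errors, and none of the 6 helicase genes was called. The lowest, median and highest level of Pcna were 102, 135 and 205 CPM in the 6 high clones and 109.8, 145 and 197 CPM in the 8 low clones. The class ranges overlapped, with 1 high clone below and 1 above every low clone. The log2 difference was -0.09 ± 0.16 (SE), and -0.27 ± 0.13 over all libraries (adjusted p = 0.825 and 0.435). Mcm2, a helicase subunit, stood at 104.1, 127 and 192 CPM in high clones and 101, 151 and 204 CPM in low clones. Its difference was -0.17 ± 0.18 in heart-free and -0.36 ± 0.17 over all libraries, and the class ranges overlapped. Mcm6, of the same ring, stood at 146, 169 and 319.8 CPM in high and 155, 179 and 284 CPM in low clones. Here 1 high clone, yfp_6556c4, stood above every low clone while 3 stood below every one, and the difference was -0.10 ± 0.20 in heart-free and -0.31 ± 0.19 over all libraries.

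Tyms had the smallest p of the 44 members over all libraries. Its level was 27.6 ± 2.73 CPM (mean ± SD) in 6 high clones and 36.7 ± 4.66 CPM in 9 low clones. Of the high clones, 5 lay below every low clone, and 7 of the 9 low clones lay above every high clone. The log2 difference was -0.38 ± 0.10 (edgeR, adjusted p = 0.307). In heart-free libraries the levels were 23.0, 28.3 and 36.1 CPM in high clones and 31.6, 36.8 and 42.7 CPM in low clones, a difference of -0.35 ± 0.12 (adjusted p = 0.262), and 4 high clones lay below every low clone. DESeq2 on the sums over all libraries gave Tyms -0.39 with an adjusted p of 0.0204, so the call depends on the tool.

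Of the genes that start S phase or guard it, Ccne1, Brca1, Chek1 and E2f1 are given in full, Brca1 and Chek1 because they were among the S phase members with the smallest p over all libraries. Ccne1, cyclin E1, stood at 4.39, 5.33 and 6.12 CPM in high clones and 4.29, 7.63 and 19.001 CPM in low clones of the heart-free libraries. The high clones were tightly grouped and the low ones were not: yfp_2699c4 stood at 19.001 CPM and 6 of 8 low clones lay above every high clone. The difference was -0.76 ± 0.30 (adjusted p = 0.327) and, over all libraries, -0.65 ± 0.22 (adjusted p = 0.349). Brca1, which acts in repair by recombination, stood at 14.8, 20.2 and 22.7 CPM in high and 18.8, 27.96 and 50.02 CPM in low clones. Of the low clones 6 of 8 lay above every high clone, and the difference was -0.59 ± 0.20 in heart-free and -0.59 ± 0.19 over all libraries (adjusted p = 0.259 and 0.338). Chek1, which stalls the cycle when replication is blocked, stood at 6.89, 11.4 and 17.3 CPM in high and 12.4, 14.8 and 20.2 CPM in low clones. Its difference was -0.36 ± 0.20 in heart-free and -0.60 ± 0.18 over all libraries, and 4 of 6 high clones lay below every low clone in the former. E2f1, the activator of this programme, was at 15.03, 18.6 and 31.2 CPM in high and 15.7, 20.9 and 33.1 CPM in low clones, with overlapping classes and differences of -0.18 ± 0.21 and -0.19 ± 0.16.

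Of the mitosis genes, the proliferation marker Mki67 stood at 98.8, 129.5 and 271 CPM in high and 151, 189 and 278 CPM in low clones of the heart-free libraries. The classes overlapped although 4 of 6 high clones lay below every low clone, and the difference was -0.35 ± 0.23 (edgeR, adjusted p = 0.503). Top2a, which untangles the copied DNA, stood at 93.6, 119 and 215 CPM in high and 109.7, 185 and 297 CPM in low clones, a difference of -0.49 ± 0.24 (adjusted p = 0.393). Ccna2, cyclin A2, which works from S phase to the onset of mitosis, stood at 33.98, 51.9 and 95.9 CPM in high and 48.2, 91.7 and 107 CPM in low clones, with differences of -0.58 ± 0.24 in heart-free and -0.61 ± 0.19 over all libraries. Foxm1, an activator of mitotic genes, stood at 28.2, 36.4 and 103 CPM in high and 37.8, 67.3 and 110.4 CPM in low clones, with 4 high clones below every low clone and yfp_6556c4 at 103 CPM. Its difference was -0.41 ± 0.33 in heart-free and -0.42 ± 0.24 over all libraries.

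Ect2, which sets up the contractile ring that parts the daughter cells, had the smallest adjusted p of the mitosis genes in both comparisons. It stood at 42.0, 54.7 and 94.2 CPM in high and 65.2, 101 and 119 CPM in low clones, and 4 of 6 high clones lay below every low clone while 5 of 8 low clones lay above every high one. The difference was -0.66 ± 0.18 in heart-free libraries and -0.57 ± 0.16 over all (edgeR, adjusted p = 0.216 and 0.307), and DESeq2 on the heart-free sums gave -0.67 with an adjusted p of 0.0401. Bub1, a kinase of the spindle checkpoint, stood at 11.7, 16.4 and 31.7 CPM in high and 13.7, 31.7 and 43.7 CPM in low clones, with differences of -0.61 ± 0.27 and -0.65 ± 0.21. For cyclin B1 and the kinases that work with it the estimates in heart-free libraries were no larger than their errors. Ccnb1 stood at 15.6, 20.3 and 57.7 CPM in high and 21.9, 33.1 and 56.1 CPM in low clones, a difference of -0.31 ± 0.34. Cdk1 stood at 29.3, 40.5 and 47.6 CPM in high and 29.9, 38.3 and 48.0 CPM in low clones and Plk1 at 37.3, 39.2 and 49.7 CPM in high and 25.1, 39.1 and 56.1 CPM in low clones. Their differences were 0.04 ± 0.15 and 0.07 ± 0.15 in heart-free libraries, and -0.04 ± 0.12 and -0.11 ± 0.12 over all libraries.

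**Figure D2:**
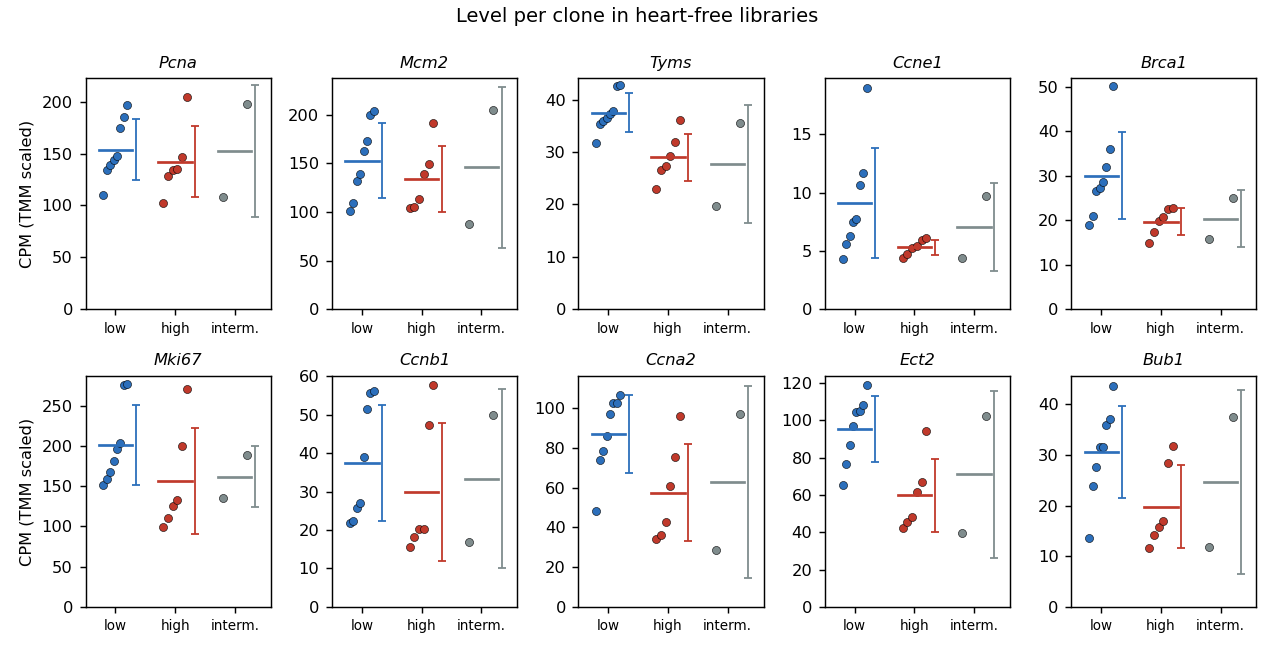
Level (CPM) of 10 members in each heart-free clone by class: points are clones, the line is the class mean and the bar is 1 SD. The classes overlap in each panel, and for Ccne1 the low clone yfp_2699c4 lies furthest from the rest.

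The balance between S phase and mitosis genes differed little between the classes beside its spread over clones. For each clone the members of each group were averaged as log2 CPM. In heart-free libraries the S phase average was 5.34 ± 0.33 in high clones and 5.68 ± 0.27 in low clones (mean ± SD, n = 6 and 8), and the mitosis average was 5.38 ± 0.49 and 5.72 ± 0.41. The balance, S phase minus mitosis, was -0.04 ± 0.30 in high and -0.04 ± 0.19 in low clones. The class means thus differed by -0.0043, far less than 1 SD. Single clones differed more: yfp_2838c3, a high clone, had a balance of -0.56, with -0.55, -0.74 and -0.40 in its 3 heart-free libraries, while yfp_6419c1, a low clone, stood at 0.30 and yfp_6499c4, a high clone, at 0.27. In yfp_2838c3 mitosis genes were high relative to replication genes in each of these 3 libraries. Its heart-bearing library had a balance of -0.28, beside a mean of -0.36 in the heart-bearing sums of high clones. Leaving out 1 clone at a time, the class difference in balance ranged from -0.07 to 0.10.

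**Figure D3:**
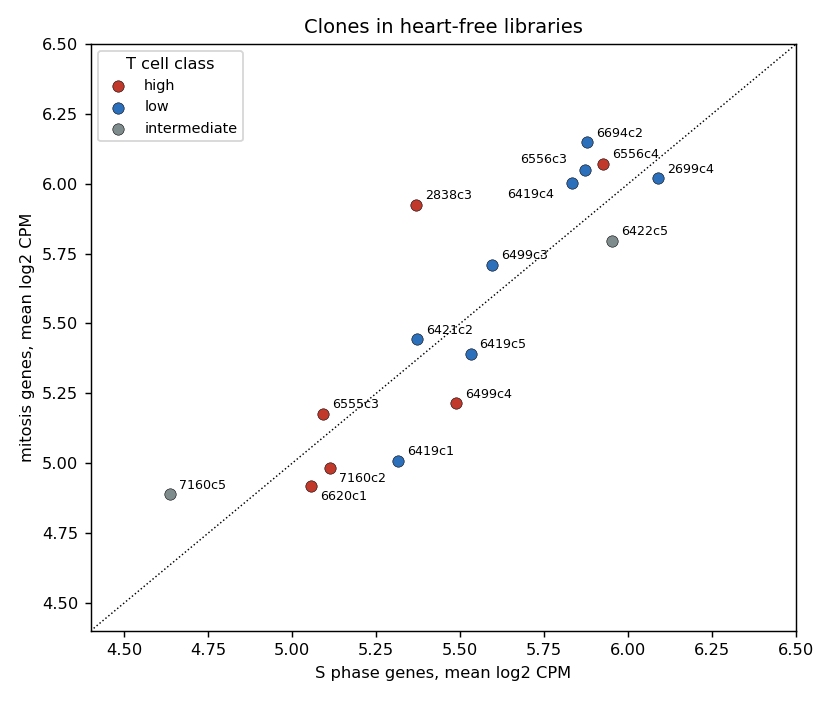
Mean log2 CPM of the 19 S phase members (x axis) against the mean log2 CPM of the 25 mitosis members (y axis) in each heart-free clone, by class. The S phase means run from 5.06 to 5.93 in high and from 5.31 to 6.09 in low clones. The mitosis means run from 4.92 to 6.07 and from 5.01 to 6.15. The clone yfp_2838c3 lies on the mitosis side with a balance of -0.56, and yfp_7160c5 has the lowest values of both.

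Marker genes of other cell types had estimates mostly above 0, high minus low clones, in the heart-free libraries, and none was called. The log2 difference was above 0 for 8 of 8 macrophage genes (median 1.54), 7 of 8 pan-leukocyte genes (1.48), 7 of 8 fibroblast genes (1.04), and 7 of 7 endothelial genes (1.23). The 1 liver gene that could be tested lay the other way, at -2.44, and the liver list summed to 0.0867 to 21.9 CPM in high clones and 0.152 to 251 CPM in low clones. Of the carcinoma identity genes 9 of 10 were above 0 (median 0.41), again with 0 called. Summed macrophage genes ran from 109 to 2756 CPM in high clones and from 89.4 to 1602 CPM in low clones, and pan-leukocyte genes from 37.7 to 502 and from 32.9 to 324 CPM. Of 9 T cell genes 3 could be tested, all above 0, and the list summed to 1.71 to 9.43 CPM in high and 1.02 to 6.85 CPM in low clones. Fibroblast genes summed to 193 to 17079 and 249 to 6021 CPM. The part of these cells in the lower level of the members was not tested.

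In heart-bearing libraries alone (6 high and 8 low clones), 44 of 44 members were below 0, against 53.4% of all genes. The medians were -0.41 for S phase and -0.40 for mitosis, against -0.03 for all genes. Again 0 were called with edgeR, against 0% of all 17313 genes, with a smallest adjusted p of 0.466, and 31 were lower at an unadjusted p under 0.05 (18 of S phase, 13 of mitosis), against 6.92% of all genes. Pcna differed by -0.38 ± 0.13 here, Mcm2 by -0.54 ± 0.20, Mcm6 by -0.62 ± 0.20 and Tyms by -0.32 ± 0.11. Ccne1 differed by -0.31, E2f1 by -0.12, Chek1 by -0.71 and Brca1 by -0.41. Of S phase members 13 of 19 lay further below 0 than in heart-free libraries, as did 15 of 25 mitosis members. Among the latter, Mki67 differed by -0.41, Top2a by -0.46, Ccna2 by -0.59, Ect2 by -0.39, Bub1 by -0.60, Foxm1 by -0.40, Ccnb1 by -0.37, Cdk1 by -0.06 and Plk1 by -0.23. In these libraries the heart genes also differed in amount between the classes, summing to 2553 to 4872 CPM in high and 152 to 4893 CPM in low libraries. These ranges overlap from 2553 CPM upwards. At 4000 CPM or more, a limit chosen after seeing the data, the S phase averages (mean log2 CPM) ran from 5.04 to 5.15 in 3 low and from 5.02 to 5.05 in 4 high libraries. The mitosis averages there ran from 5.44 to 5.51 and from 5.38 to 5.47. Below that limit, the low library of yfp_6421c2 (2567 CPM) had S phase and mitosis averages of 5.26 and 5.54. The high libraries of yfp_7160c2 (2553 CPM) and yfp_2838c3 (3431 CPM) had 4.87 and 5.15, and 5.17 and 5.45. In 5 low libraries the heart sum lay below that of every high library. Over clones, the S phase averages had an SD of 0.10 in high and 0.36 in low clones, and the mitosis averages 0.12 and 0.36. The p-values of this comparison rest on a spread that includes the nearly equal values at 4000 CPM or more.

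The members were compared directly between heart-bearing and heart-free libraries of the same clone, in 34 libraries of 15 clones. The p-values of this comparison measure the spread between libraries. Of the 19 S phase members, 10 were called lower and 0 higher with edgeR (adjusted p under 0.05). Of the 25 mitosis members, 3 were called lower and 5 higher. Of all 16482 genes, 26.5% were called lower and 33.2% higher, so a call is common in this comparison. The called replication genes thus moved one way and the called mitosis genes both ways. The share of S phase members called lower, 10 of 19, lay above that background and the share of mitosis members, 3 of 25, lay below it. The medians were -0.24 for S phase, -0.05 for mitosis and 0.04 for all genes.

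Among the S phase genes, Mcm2 had its lowest, median and highest level at 94.1, 148 and 236 CPM in the 20 heart-free libraries. In the 7 libraries with a heart sum of at least 4000 CPM, a limit chosen after seeing the data, the levels were 63.0, 68.5 and 71.6 CPM. The heart-bearing level lay below the heart-free one in 15 of 15 clones, a log2 difference of -0.74 ± 0.12 (adjusted p = 2.06e-05). Cdc6, which loads the helicase at origins, fell by 0.75 and was also lower in 15 of 15 clones. Chek1 fell by 0.58 and Pcna by 0.35, each in 15 of 15 clones, and Mcm6 fell by 0.63 and Mcm3 by 0.53, each in 14 of 15. Mcm5 (-0.42), Mcm4 (-0.41), Brca1 (-0.29) and Gins2 (-0.24), which joins the helicase at the fork, were the others called lower. The calls of Brca1 and Gins2 were lost with library totals only. Brca1 was also not called when any of 10 clones was left out, with adjusted p from 0.0512 to 0.0876. Mcm7, of the same ring as Mcm2 to Mcm6, differed by -0.08 ± 0.07 and was not called. Tyms (-0.17 ± 0.07), Ccne1 (-0.08 ± 0.14) and E2f1 (0.03 ± 0.10) were not called either.

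Of the mitosis genes, Kif23, a kinesin of the midzone, fell by 0.62, Ccnb2 by 0.45 and Plk1 by 0.40. Heart-bearing libraries were lower in 14, 12 and 13 of 15 clones. Ccnb1 rose by 0.51, Cdk1 by 0.45, Nusap1, which bundles spindle microtubules, by 0.44, Ube2c, which tags mitotic proteins for decay, by 0.39 and Aurkb, the kinase of the chromosomal passenger complex, by 0.22. Cdk1 stood at 30.3, 42.6 and 54.4 CPM in heart-free libraries and at 51.8, 55.0 and 61.0 CPM in the 7 with the most heart transcripts, and was higher in the heart-bearing libraries in 14 of 15 clones. Cyclins B1 and B2, partners of one kinase, were thus called in opposite directions. With median-ratio factors Aurkb was not called and Tyms was called lower, and with library totals only Aurka was called higher as well. Mki67 and Top2a were not called, at -0.24 ± 0.14 and -0.13 ± 0.10. Nor were Ccna2 (0.06 ± 0.10), Foxm1 (0.05 ± 0.14), Ect2 (-0.07 ± 0.09) and Bub1 (-0.13 ± 0.15), so the mitotic genes with the smallest p between the classes were not among those called here.

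**Figure D4:**
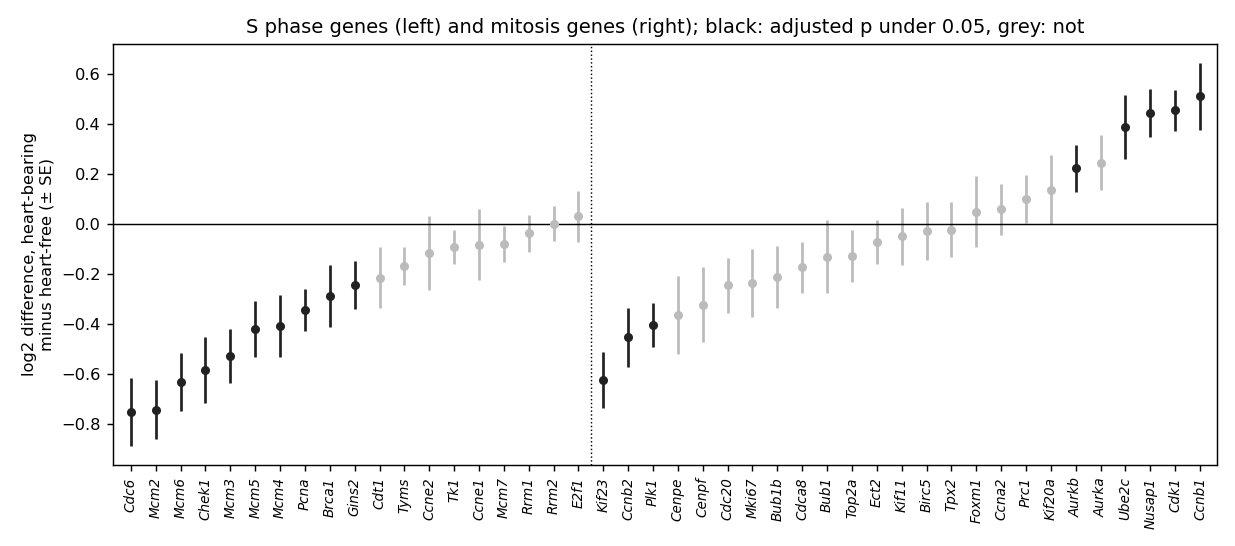
Log2 difference, heart-bearing minus heart-free libraries of the same clone, for each member with bars of 1 standard error, black where the adjusted p is under 0.05. The called S phase members, 10 of 19, all lie below 0, and of the called mitosis members 3 lie below and 5 above.

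The S phase average was lower in the heart-bearing libraries in 12 of 15 clones and the mitosis average in 6 of 15, and the balance moved towards mitosis in 13 of 15. The 7 libraries with at least 4000 CPM of heart transcripts, of 7 clones (3 low and 4 high), agreed closely. Their S phase averages ran from 5.02 to 5.15 (SD 0.05) and their mitosis averages from 5.38 to 5.51 (SD 0.04). In the 8 heart-free libraries of the same clones the averages ran from 5.10 to 6.16 and from 4.97 to 6.14. Clone sums over all libraries include these libraries, so their spread, and the p-values that rest on it, hold values that hardly differ between clones. In the same contrast 6 of 6 liver genes were called higher, and the liver list summed to 481 to 15887 CPM in heart-bearing libraries, more than the heart genes. There too 5 of 5 erythroid, 8 of 8 pan-leukocyte, 8 of 8 fibroblast, 7 of 7 endothelial and 6 of 8 macrophage genes were called higher. Of the T cell and B cell genes tested, 4 of 5 and 2 of 2 were called higher. Of 10 carcinoma identity genes 5 were called lower and 1 higher. These counts stand beside 33.2% of all genes called higher and 26.5% called lower. What part these other transcripts have in the lower level of replication genes was not tested.

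**Figure D5:**
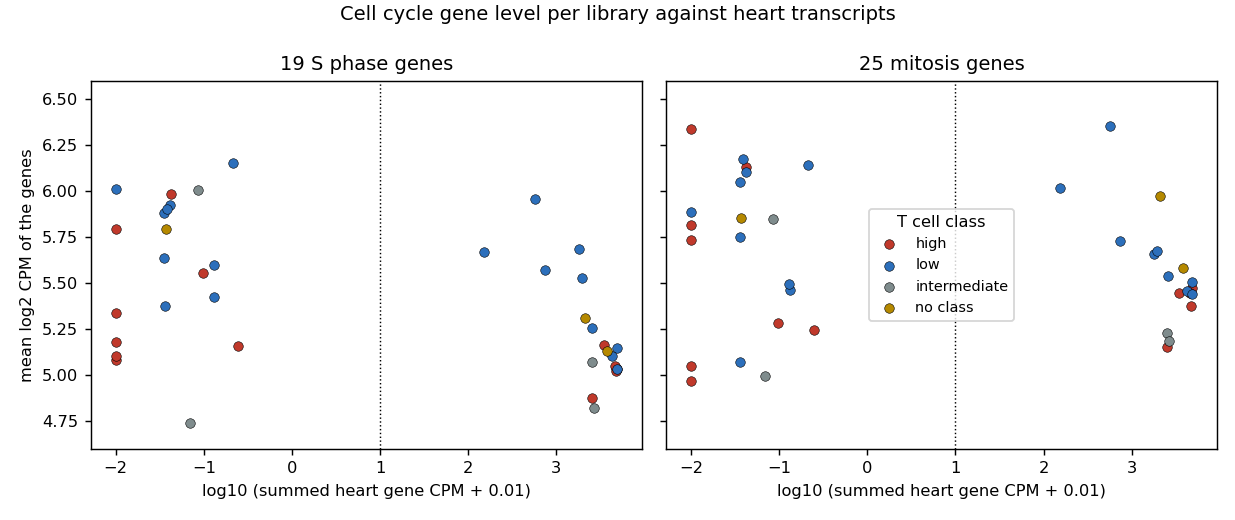
Mean log2 CPM of S phase members and of mitosis members in each of the 39 libraries against the summed heart transcripts (log10 axis), by class. Libraries with at least 4000 CPM lie in a narrow band of 5.02 to 5.15 (S phase) and 5.38 to 5.51 (mitosis), and the 20 heart-free ones spread from 4.74 to 6.16 and from 4.97 to 6.34.

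The letters of the promoters were set beside these calls. Of the 10 S phase members with an E2F word in the window, 6 were called lower in heart-bearing libraries, and of the 6 without one, 2 were. Of the 16 mitosis members with a CHR word, 3 were called lower and 2 higher, and of the 4 without one, 0 lower and 2 higher. Of all genes tested between the kinds of library, 26.5% were called lower and 33.2% higher. Shares called among all genes with or without each word were not computed, and a link between words and calls was not tested. The printed promoters of Mcm5 and Mcm6 belong to genes called lower and that of Rrm1 to a gene that was not called (-0.04 ± 0.08). Those of Bub1b (-0.21), Ccnb2 (-0.45) and Kif11 (-0.05) share CHR and CCAAT words, and of these Ccnb2 alone was called.

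Sister clones of one parent line offered the comparison within lines: yfp_6499c3 (low) with yfp_6499c4 (high), and yfp_6556c3 (low) with yfp_6556c4 (high), with 2 libraries each. These libraries are also part of the comparisons above. Here single libraries were fitted, so p-values and errors measure the spread between libraries and not between clones. All 44 members were below 0 in the high clones, against 44.4% of all 16045 genes. The medians were -0.29 (S phase) and -0.49 (mitosis), against 0.06 for all genes. With edgeR 0 members were called lower and 0 higher, as were 0% and 0% of all genes, and 10 were lower at an unadjusted p under 0.05, against 3.80% of all genes. Of these 10, Brca1 alone is an S phase gene, and Top2a, Ccna2, Bub1, Bub1b, Cenpe, Kif11, Kif20a, Ect2 and Tpx2 act in mitosis. Ect2 differed by -0.79 ± 0.12 (adjusted p = 0.380), Brca1 by -0.74 ± 0.20 and Pcna by -0.12 ± 0.25. Differences for Mcm2 (-0.43), Mcm6 (-0.22), Tyms (-0.35), Ccne1 (-0.15), E2f1 (-0.02) and Chek1 (-0.48) stood beside those for Mki67 (-0.66), Top2a (-0.58), Ccna2 (-0.78), Bub1 (-0.84), Foxm1 (-0.47), Ccnb1 (-0.44), Cdk1 (-0.01) and Plk1 (-0.00446). Whether S phase and mitosis genes differ in this was not tested. Pairs of libraries with the same tumour number differed in size. For yfp_6556c3 and yfp_6556c4 the median over S phase members was -0.92 and over mitosis members -0.99 in tumour number 1, where all 44 were lower, and 0.05 and 0.03 in number 2, where 19 of 44 were. For yfp_6499c3 and yfp_6499c4 the medians were -0.65 and -0.64 in number 1 (41 of 44 lower) and -0.07 and -0.58 in number 2 (31 of 44). Number 1 is the heart-bearing library in each of these clones, with heart sums of 152 and 568.3 CPM in the low clones and 4718 and 4748 CPM in the high ones. In the heart-free pair of yfp_6556c3 and yfp_6556c4 the lower level of the high clone was not seen, and the median over S phase members was -0.15 without the heart-bearing library of yfp_6556c4. Without the heart-free library of that clone, 19 members were lower at an unadjusted p under 0.05.

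Intermediate clones gave no stable place. Against low clones 0 members were called with edgeR, against 0.00499% of all 20028 genes. Of the 44 members 43 lay below 0, against 50.3% of all genes. At an unadjusted p under 0.05, 3 were lower (Tyms, Cdc20 and Cdca8), against 1.50% of all genes. Against high clones 0 members were called, against 0% of all genes, and 0 at an unadjusted p under 0.05, with medians of 0.07 and 0.01. The 2 clones lay far apart. In heart-free libraries yfp_6422c5 had S phase and mitosis averages of 5.95 and 5.80 and yfp_7160c5 had 4.63 and 4.89, the lowest of the classed clones. Pcna stood at 198 and 108 CPM and Mki67 at 188 and 135 CPM. Without yfp_7160c5 the S phase median against low clones was 0.07, and without yfp_6422c5 it was -0.84. The high clone of the line of yfp_7160c5, yfp_7160c2, was also among the lowest, at 5.11 and 4.98.

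Other genes of the cycle went the same way as the members without being called. In high against low clones over all libraries, 48 of 50 further replication genes were below 0 (median -0.32), as were 52 of 54 further mitosis genes (-0.36), 21 of 24 genes of the G1 drivers and E2F network (-0.19) and 13 of 19 cell cycle inhibitors (-0.05). Of all genes 51.7% were below 0. None of the listed genes was called with edgeR, against 0% of all genes. At an unadjusted p under 0.05, 20, 19, 7 and 1 were lower, against 6.77% of all genes. Skp2, which marks the inhibitor p27 for decay, differed by -0.66 ± 0.17 over all and -0.62 ± 0.18 in heart-free libraries (adjusted p = 0.307 and 0.237). Asf1b, a histone chaperone of replicating DNA, differed by -0.48 ± 0.12 and -0.55 ± 0.17. In heart-free libraries the counts below 0 were 45 of 50, 52 of 54, 17 of 24 and 10 of 19, against 50.4% of all genes. The inhibitors there thus lay near the share of all genes below 0, and the replication and mitosis lists lay well above it.

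Between heart-bearing and heart-free libraries, 26 of 50 further replication genes were called lower and 6 higher, and 9 of 54 further mitosis genes lower and 9 higher. Of the G1 drivers and E2F network 9 of 24 were lower and 5 higher, and of the inhibitors 4 of 19 were lower and 6 higher. Beside the 26.5% of all genes called lower and 33.2% called higher, the counts of inhibitors lay near the background. All genes called of the inhibitor list are given here. Cdkn1a, which encodes the CDK inhibitor p21, rose by 1.19 on the log2 scale (1.19 ± 0.17, adjusted p = 5.51e-06), while Trp53, which encodes p53, differed by -1.20 ± 0.20 and Gadd45a, a stress gene, fell by 1.48. Mdm2, the inhibitor of p53 and so not itself an inhibitor of the cycle, is included in the counts of the list and rose by 0.37. Cdkn1b and Cdkn2c, which also encode CDK inhibitors, fell by 0.51 and 0.52. Btg2, Wee1, Ccng1 and Rb1 rose by 0.89, 0.49, 0.44 and 0.22. The further replication genes and the S phase members thus had similar shares called lower, 26 of 50 and 10 of 19, beside 26.5% of all genes.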

How the data were processed

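Whole-number read counts for 39017 genes in 39 libraries were used as deposited by the authors. The submitters' processing notes name STAR, featureCounts and the mm10 build. Their versions, the annotation and the strand setting were not given in the sources used here, so reads of overlapping or antisense genes cannot be told apart. Groups came from the labels. Counts were summed by clone (9 low, 6 high, 2 intermediate), low genes were removed by filterByExpr, and TMM factors were applied. Differences were tested by quasi-likelihood in edgeR 4.0.16 (R 4.3.3), with Benjamini-Hochberg adjusted p over all genes tested under 0.05. Heart-bearing and heart-free libraries were compared per library with clone as a block, and sister clones with parent line as a block. Levels are CPM with TMM factors. Log2 CPM for the averages used a prior count of 2. The sum of heart genes that divides the libraries is CPM on library totals, and the ranges of other marker sums by class carry TMM factors. Members and lists were chosen with earlier results of these data known. Every member may be named, and per-clone levels are given for 12 members picked by role and for the 3 S phase and 3 mitosis members with the smallest p over all libraries.

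Libraries with the same tumour number in sister clones deviated together (correlation 0.63 for yfp_6499c3 and yfp_6499c4, 0.81 for yfp_6556c3 and yfp_6556c4). The labels do not say what the number marks, and it coincides there with the kind of library. Promoters are from RefSeq on GRCm38.p6. Those printed are the first 3 in alphabetical order with an E2F word (S phase) or a CHR word (mitosis) before the start, passing over Cdc6, Mcm7, Cdc20, Cdk1 and Ect2, whose windows overlap an annotated exon. For 26 of the 36 matched members the last 30 bases of the window were found in a GENCODE transcript of the gene. DESeq2 1.42.0, limma 3.58.1, other scalings, no filter, libraries as replicates and leaving out each clone were tried. In simulated data the clone comparison recovered 12% of genes changed by 0.5 and 70% of those changed by 1 on the log2 scale over 18353 genes, with 8.89% of calls false. In heart-free libraries these were 2%, 34% and 2.7% over 15437 genes, and between kinds of library 55%, 88% and 4.67% over 16390 genes. Each gene was drawn independently, with no clone or heart effect shared between genes, so these shares need not hold for the real counts.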

Additional observations from a re-analysis of the deposited data

Results flagged for a closer look

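Of 80 groups of clone levels tested for a clone far from the others, 4 held one, and chance gives about 1 in 20. Over all libraries, Cdk1 stood at 70.5 CPM in the low clone yfp_6556c3, with the next of the 9 low clones at 52.7 CPM. In heart-free libraries the high clone yfp_6556c4 stood far above the other 5 high clones for 3 members. Its Mcm6 was at 319.8 CPM (next 189 CPM), its E2f1 at 31.2 CPM (next 19.3 CPM) and its Plk1 at 49.7 CPM (next 41.4 CPM). That clone has 1 heart-free library, and yfp_6556c3 and yfp_6556c4 share a parent line. The cause was not tested.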

How the results depend on the processing

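Of 438 alternative values of comparison-level results, 414 kept their direction and their side of the threshold or their size. For the members picked by role or by smallest p, 1355 of 1377 values did so. None of these values reversed a call. Other members, such as Aurkb, Aurka and Gins2, are not in this count. Over all libraries DESeq2 called 1 member lower (Tyms, -0.39, adjusted p = 0.0204) among 123 genes called (0.665% of those tested). Libraries as replicates with heart transcripts as a block called 2 (Tyms, -0.35, adjusted p = 0.0362, and Cdc6) among 127 genes called. That setting counts libraries of one clone as separate replicates of a class, so its p-values measure the spread between libraries and not between clones. Heart-free libraries alone left 7 members at an unadjusted p under 0.05. In heart-free libraries DESeq2 called 1 (Ect2, -0.67, adjusted p = 0.0401) among 299 and limma-voom left 11 at an unadjusted p under 0.05. Between kinds of library, 3 members were called higher with no filter. Tyms was called lower with median-ratio factors (-0.18), no filter (-0.24), DESeq2 (-0.18) and when any of 5 clones was left out (adjusted p 0.0101 to 0.0468), and Brca1 was not called with library totals only (-0.24). In sister clones, the line of yfp_6556c3 and yfp_6556c4 alone left 2 members at an unadjusted p under 0.05. Leaving out 1 clone or library at a time, the count at an unadjusted p under 0.05 ranged from 15 to 34 over all libraries, from 4 to 23 in heart-free libraries, from 7 to 19 in sister clones and from 0 to 20 for intermediate against low clones. The mitosis median in heart-free libraries ranged from -0.51 to -0.21, the last without yfp_7160c2. Medians of intermediate against low clones ranged from -0.84 to 0.074 (S phase) and from -0.82 to -0.11 (mitosis), and against high clones from -0.39 to 0.54 and from -0.42 to 0.29. With libraries as replicates and tumour number as a replicate block, the comparison over all libraries called 0 members. There 23 were at an unadjusted p under 0.05, with medians of -0.34 and -0.23, and p again measured the spread between libraries. In sister clones the block called 0, with 12 at an unadjusted p under 0.05 and medians of -0.35 and -0.47, so the pairing changed no call. In simulated data of the same size, 12% of genes changed by 0.5 and 70% of those changed by 1 on the log2 scale were recovered over all libraries, and 2% and 34% in heart-free libraries.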

Other observations

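The labels put 3 libraries, of clones yfp_6883c1, yfp_6883c4 and yfp_7062c3, in no class. The heart-bearing library of yfp_6883c1 had an S phase average of 5.31 and a mitosis average of 5.97 log2 CPM, a balance of -0.66. The heart-bearing library of yfp_6883c4 stood at 5.13 and 5.58, a balance of -0.45, and the heart-free library of yfp_7062c3 at 5.79 and 5.85, a balance of -0.06. Heart-bearing libraries of classed clones had balances from -0.44 to 0.02.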
